A study of Mus musculus with 6 samples.

Results

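The copine genes of the mouse hippocampus (HIPP) were examined in saline and methamphetamine (MA) treated mice. The members were the 9 genes named Cpne1 to Cpne9, taken by gene symbol, and 8 of them had a row among the 16060 rows of the deposited table. Cpne7 had no row and its RNA was not analysed here. The family was selected on the measured MA minus Control difference of Cpne2, which was already known to be large, so every MA minus Control value of a copine is a description without a test. HIPP RNA came from 3 Control mice, which received saline intraperitoneally, and 3 MA mice, which received intraperitoneal MA at a dose that was raised in each of 3 weeks. All were adult male C57BL/6 mice killed after behavioral testing, with no transgene or mutant allele named in either group. The values are levels per gene length on a log2 scale, read as log2 of an RPKM-scale value plus 1, and the 6 libraries had been brought to a nearly common distribution before deposit. Levels are compared between genes on the reading that the values are per length.

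Copines are cytosolic proteins that bind membrane phospholipids when calcium rises. Each carries a pair of C2 domains, which are calcium-dependent lipid-binding folds, followed by a domain related to the A domain of von Willebrand factor that binds partner proteins. Cpne6, also called neuronal copine, is known for its abundance in forebrain excitatory neurons, where it moves to the membranes of dendritic spines on calcium entry and acts through the small GTPase Rac1. Cpne1 and Cpne3 are found in many tissues, and Cpne3 is described as a partner of the receptor kinase Erbb2.

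How alike the copines are at the nucleotide level decides whether their reads can be told apart. The ungapped 60-base stretch of their aligned coding sequences in which the others together match Cpne2 best is therefore shown first. In Cpne2 it lies in coding exon 14, at chr8:94568660-94568719 on the plus strand of GRCm38 (GENCODE M21), and spans coding bases 1372 to 1431. Each line reads 5′ to 3′ along the gene, and capitals mark the bases that differ from Cpne2.
Cpne2: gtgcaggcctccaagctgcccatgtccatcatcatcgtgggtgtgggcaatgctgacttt
Cpne1: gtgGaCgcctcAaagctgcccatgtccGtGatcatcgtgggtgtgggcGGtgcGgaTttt
Cpne3: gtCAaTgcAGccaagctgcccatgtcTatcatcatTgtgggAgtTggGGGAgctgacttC
Cpne4: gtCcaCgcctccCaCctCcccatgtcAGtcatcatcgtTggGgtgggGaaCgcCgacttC
Cpne6: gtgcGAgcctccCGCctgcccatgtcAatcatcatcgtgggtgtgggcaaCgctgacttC
Cpne7: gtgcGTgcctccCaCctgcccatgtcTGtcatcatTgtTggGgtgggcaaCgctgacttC
Cpne5: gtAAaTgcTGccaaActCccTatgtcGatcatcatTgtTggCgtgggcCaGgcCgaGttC
Cpne8: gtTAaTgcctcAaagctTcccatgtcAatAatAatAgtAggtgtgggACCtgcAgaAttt
Cpne9: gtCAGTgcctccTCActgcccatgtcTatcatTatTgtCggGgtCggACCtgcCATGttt

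Within this window Cpne6 differed from Cpne2 at 8 bases, Cpne1 at 9 and Cpne9, the most different, at 20. The longest run of bases shared exactly by the coding sequences of Cpne2 and another copine was 23 bases, with Cpne6, and begins at coding base 1399 of Cpne2: atcatcatcgtgggtgtgggcaa. Of the 3243 distinct 50-base words in the annotated Cpne2 transcripts, 0 occurred in the transcripts of any other gene. No 50-base word was shared between any copine and another. Cpne1 stood apart here, since 3896 of its 5243 words also occurred in other genes, among them the overlapping Rbm12 and Gm28036 on the same strand, and its level is therefore uncertain. For Cpne3, Cpne5, Cpne7 and Cpne8 the shared words came to between 0.33% and 3.7%, and Cpne4, Cpne6 and Cpne9 had 0 shared words.

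Over the whole coding sequence the 9 copines fell into trios by nucleotide identity. Cpne1, Cpne2 and Cpne3 made one, Cpne4, Cpne6 and Cpne7 another, and Cpne5, Cpne8 and Cpne9 the last. Identity was between 62.3% and 73.6% for the 9 pairs within a trio and between 53.6% and 59.7% for the 27 pairs between trios. Cpne5 and Cpne9 were the closest pair, and Cpne2 was closest to Cpne3, at 63.7%. The coding sequences were of similar length, from 1599 bases in Cpne3 to 1779 in Cpne5, whereas the genes ranged from 6987 bases for Cpne6 to 487259 for Cpne4. The last trio is also split into more coding exons, at 21, 20 and 21 for Cpne5, Cpne8 and Cpne9, against 15 in each of the other 6.

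**Figure D1:**
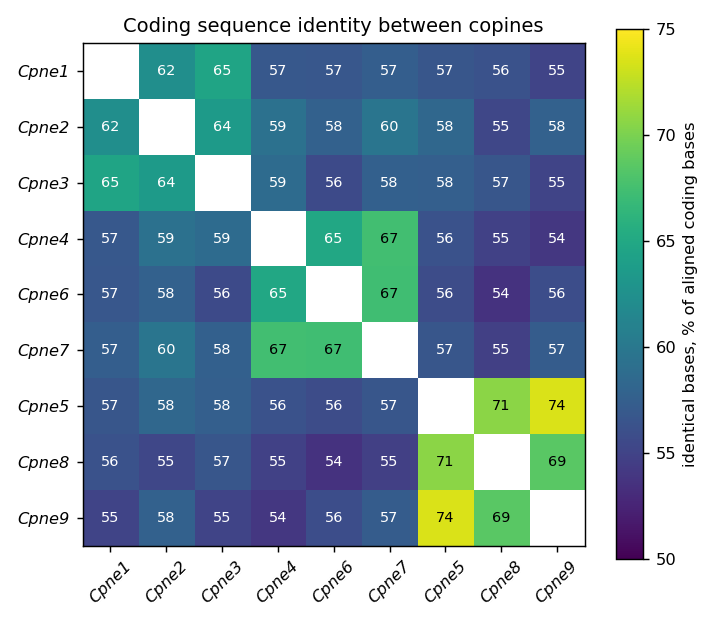
Identity of the coding sequences of the 9 mouse copines, as the percent of aligned coding bases that are the same, with both axes ordered by trio. The cells near the diagonal hold the 9 within-trio pairs, all at 62.3% or above, and every other pair is at 59.7% or below.

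MA and Control stand throughout for the libraries so labelled, and every direction rests on those labels, which no value here checks independently. Fosb, an immediate early gene that the study describes as raised by MA, was lower in each library labelled MA. Its log2 levels were 3.23, 2.92 and 3.01 in Control replicates 1, 2 and 3 and 1.78, 1.81 and 1.602 in MA replicates 1, 2 and 3. The study lists other immediate early genes as raised by MA, among them Fos, Egr1, Arc and Nr4a1, whose values are not given here. If the labels were exchanged, the sign of every copine difference would be exchanged too.

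Libraries differed in more than treatment. Across 13321 tested genes, the mean correlation between a library and its group mates was 0.991 to 0.993 for Control and 0.984, 0.985 and 0.978 for MA replicates 1, 2 and 3, so MA replicate 3 stood apart most. The table gives no read totals, so depth is unknown. Markers of the hippocampal subfields were present: 5 of 5 for CA1, 8 of 9 for CA2 and CA3 and 8 of 8 for dentate granule neurons passed the filter on low values, with Map3k15 the one that did not. Their median log2 differences were -0.30, 0.13 and -0.14, with 0 genes past the adjusted threshold of limma. At an unadjusted p under 0.05, 2 of 5 CA1 genes (Pou3f1 and Wfs1) and 1 of 8 dentate genes were lower in MA, and 1 of 8 CA2 and CA3 genes was higher. The part of these shifts in the copine values was not tested. All 11 choroid plexus markers, all 12 thalamic markers and all 5 blood markers had higher means in MA, and their values stand beside the Cpne2 result. The other marker lists (cortical, striatal, GABAergic, oligodendrocyte, astrocyte, microglial and endothelial) had median log2 differences between -0.20 and 0.15 and no gene past the adjusted threshold of limma. At an unadjusted p under 0.05, 2 of 5 endothelial genes were higher in MA, where 4.99% of tested genes were. In the same way 1 of 6 cortical and 1 of 6 astrocyte genes were lower, where 5.46% of tested genes were, and the striatal, GABAergic, oligodendrocyte and microglial lists had 0.

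In control HIPP the family was dominated by Cpne6. Its level was 7.69, 7.58 and 7.40 in Control replicates 1, 2 and 3, which placed its mean above 96.7% of tested genes. On the linear RPKM scale Cpne6 made up 64.6% ± 3.5 (SD, n = 3) of the summed level of the 8 copines. Cpne4 followed at 5.24 ± 0.13 on the log2 scale (SD, n = 3), and its 3 values lay below those of Cpne6 and above those of every other copine. Cpne8, Cpne5, Cpne9, Cpne2 and Cpne1 came next with means of 3.96, 3.78, 3.74, 3.72 and 3.69, and each overlapped its neighbour in that order. Cpne8 and Cpne2, which are not neighbours, did not overlap. Cpne3 was the lowest at 1.56 ± 0.04 (SD, n = 3) and lay apart from the rest. The spread among Control mice also differed between members. Cpne2 had the smallest SD of the 8, at 0.034, and 8.70% of tested genes varied less. Cpne5 and Cpne9 had the largest, at 0.28 and 0.25, and both were highest in Control replicate 3.

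**Figure D2:**
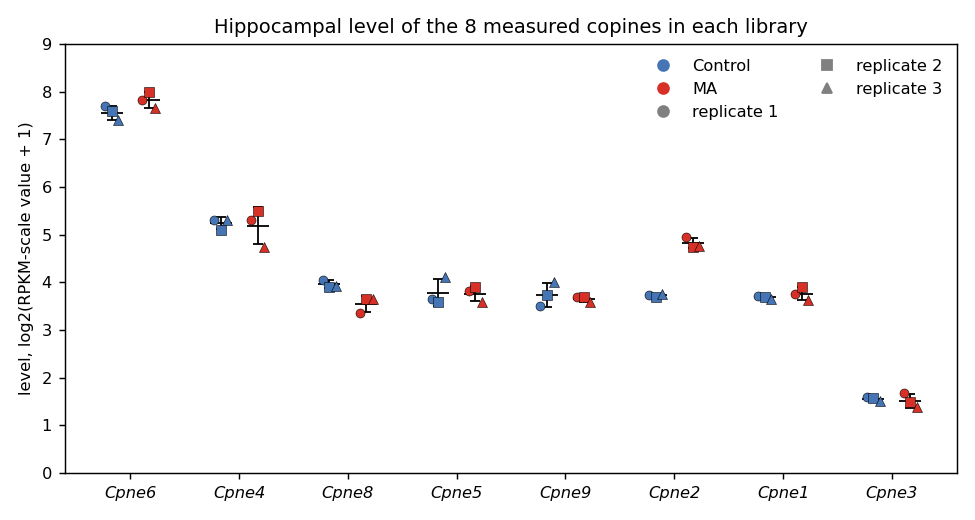
Level of each measured copine in each library on the log2(RPKM-scale value + 1) axis, with genes ordered by Control mean, points for single mice and bars for the mean ± SD of 3. The 3 MA points of Cpne2 sit between 4.75 and 4.94, above its Control points at 3.69 to 3.75, while the other genes overlap or, for Cpne8, lie lower in MA.

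Cpne2 was the copine with the largest difference between the groups. It encodes a broadly expressed family member whose role in the brain is little described. Its plus-strand gene (ENSMUSG00000034361, GRCm38) occupies chr8:94532990-94570531 and overlaps no other annotated gene. The log2 level was 3.73, 3.69 and 3.75 in Control replicates 1, 2 and 3 and 4.94, 4.75 and 4.76 in MA replicates 1, 2 and 3. Every MA library was above every Control library, and the gap between the groups was many times the spread within either. The log2 difference was 1.09 (standard error 0.09), larger in size than that of 99.4% of tested genes. On the linear scale this was 12.2 ± 0.3 in Control and 27.3 ± 2.2 in MA (SD, n = 3 each), a ratio of 2.23. In bulk tissue, more cells that carry a transcript and more transcript per cell cannot be told apart.

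Among the copines, 1 of 8 passed an adjusted p under 0.05 in limma, namely Cpne2, where 0.263% of the 13321 tested genes passed. It was also the 1 copine with a log2 difference over 1 in size, against 0.646% of tested genes. At an unadjusted p under 0.05, 2 of 8 were higher in MA (Cpne2 and Cpne6), where 4.99% of tested genes were, and 1 of 8 was lower (Cpne8), where 5.46% were. This is the contrast by which the family was picked, so nothing is read from these counts. The difference of Cpne2 stayed between 1.03 and 1.15 under all 14 alternative settings. Its call did not: no copine passed with the replicate block, or without Control replicate 1, 2 or 3 or MA replicate 2, and Cpne2 alone passed without MA replicate 1 or 3. Over all tested genes 35 passed in the main fit and 15 with the replicate block. The count was 3 without Control replicate 1 and 0 without Control replicate 2, Control replicate 3 or MA replicate 2.

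The libraries of the groups did not overlap for 2 of the 8 copines, Cpne2 and Cpne8, where 17.5% of all tested genes had groups that did not overlap (7.32% higher and 10.2% lower in MA). Nothing is read from this count either. Cpne8 (ENSMUSG00000052560), on chromosome 15 from 90487482 to 90679432 on the minus strand, was the non-overlapping member that was lower in MA. Its log2 level was 4.06, 3.90 and 3.92 in Control replicates 1, 2 and 3 and 3.36, 3.65 and 3.64 in MA replicates 1, 2 and 3. All MA values were lower, with replicate 1 the lowest. The log2 difference was -0.41 (standard error 0.11), from 14.6 ± 0.9 to 10.8 ± 1.3 on the linear scale (SD, n = 3 each), a ratio of 0.741. It ranged from -0.46 to -0.31 over the alternatives. A processed pseudogene, Gm6746, lies within Cpne8 on the other strand.

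Cpne6 (ENSMUSG00000022212, chromosome 14 from 55510445 to 55517431, plus strand) was 7.82, 7.996 and 7.66 in MA replicates 1, 2 and 3. The lowest MA value lay just under the highest Control value, so the groups overlapped. The log2 difference was 0.27 (standard error 0.11) and ranged from 0.18 to 0.37 over the alternatives. In linear terms Cpne6 was 188 ± 19 in Control and 227 ± 26 in MA (SD, n = 3 each), a larger difference in linear units than that of Cpne2.

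Cpne4, the second most abundant copine, was 5.32, 5.10 and 5.32 in Control replicates 1, 2 and 3 and 5.31, 5.50 and 4.75 in MA replicates 1, 2 and 3. The low value in MA replicate 3 set the sign of the mean difference, which was -0.06 (standard error 0.19) with all libraries and 0.16 without that library. Cpne9 was 3.49, 3.73 and 3.997 in the Control libraries and between 3.59 and 3.69 in the MA libraries, so its MA values lay inside the Control range. Cpne5 showed the same arrangement, at 3.65, 3.58 and 4.10 in Control and 3.59 to 3.89 in MA. The log2 differences of Cpne9 and Cpne5 were -0.08 (standard error 0.13) and -0.01 (standard error 0.16), and they became 0.04 and 0.15 without Control replicate 3. That of Cpne5 was also positive, at 0.07, without MA replicate 3.

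Cpne1 and Cpne3, the members found in many tissues, had groups that overlapped. Cpne1 (chromosome 2, minus strand) was 3.72, 3.70 and 3.65 in Control replicates 1, 2 and 3 and 3.76, 3.90 and 3.62 in MA replicates 1, 2 and 3. Its MA values spanned its Control range, with a log2 difference of 0.07 (standard error 0.10). Cpne3 (chromosome 4, minus strand) was between 1.51 and 1.59 in Control and between 1.38 and 1.67 in MA, a log2 difference of -0.04 (standard error 0.11). Over the 8 copines 3 means were higher and 5 lower in MA, and the median log2 difference was -0.03, while the median of all tested genes was -0.01 and 47.3% of them were higher.

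**Figure D3:**
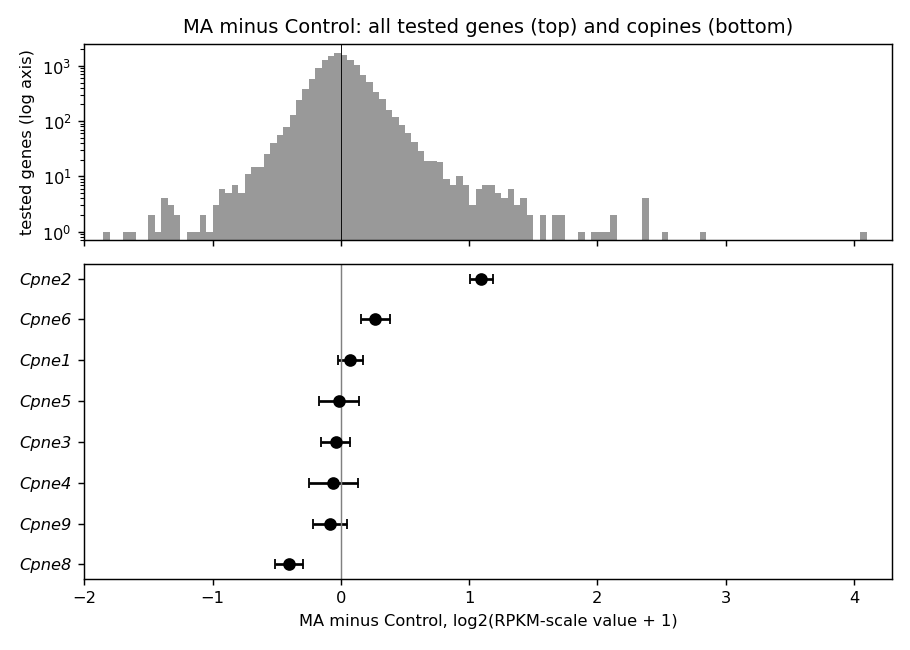
MA minus Control on the log2(RPKM-scale value + 1) axis for all 13321 tested genes, as a histogram with a log count axis (top), and for the 8 copines with limma standard errors (bottom). Cpne2, at 1.09, lies in the thin upper tail, Cpne8 is at -0.41 and the other 6 fall between -0.08 and 0.27.

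Sequence relatives of the members with the larger differences are set beside them here as a description. The log2 difference of Cpne2 was 1.09, and those of its closest relatives Cpne3 and Cpne1 were -0.04 and 0.07. The log2 difference of Cpne8 was -0.41, and those of Cpne5 and Cpne9, of the same trio, were -0.01 and -0.08.

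Set against its paralogs library by library, Cpne2 moved from below to above the family mean. Cpne2 minus the mean log2 level of the 7 others was -0.48, -0.48 and -0.52 in Control replicates 1, 2 and 3 and 0.74, 0.44 and 0.73 in MA replicates 1, 2 and 3. The sign was negative in each Control library and positive in each MA library. The mean of the paralogs itself was 4.22 ± 0.05 in Control and 4.18 ± 0.14 in MA (SD, n = 3 each), a difference smaller than the spread among MA libraries. The difference of differences was 1.13, with 1.03 to 1.23 over the alternatives. In the order of mean levels 5 copines lay above Cpne2 in Control and 2 in MA. In Control the values of Cpne5 and Cpne9, among those 5, overlapped those of Cpne2. In MA its values overlapped those of Cpne4 and lay above those of every lower member. Its share of the summed linear level was 4.20% ± 0.26 in Control and 8.09% ± 1.06 in MA (SD, n = 3 each). Cpne8 went from 4.998% ± 0.14 to 3.20% ± 0.58, and Cpne6 held 66.8% ± 0.9 in MA. The summed level of all 8 was 291 ± 16 in Control and 340.3 ± 39 in MA.

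**Figure D4:**
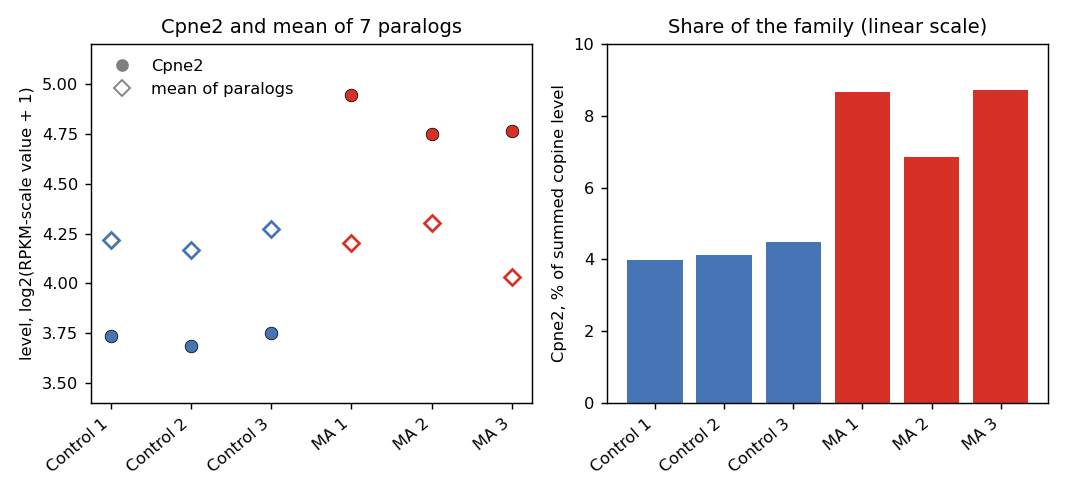
Left, Cpne2 (filled circles) and the mean of its 7 measured paralogs (open diamonds) in each library on the log2(RPKM-scale value + 1) axis; right, Cpne2 as a percent of the summed linear copine level, with Control in blue and MA in red. The circle lies below the diamond in the Control libraries and above it in the MA libraries, and the share lies between 3.99% and 4.49% in Control and between 6.86% and 8.72% in MA.

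Markers of tissue outside the hippocampal neurons moved with the groups and are given beside the Cpne2 values. The choroid plexus is the ventricular epithelium that makes cerebrospinal fluid, and its 11 markers were all measured, none at 0 in any library. Their summed linear level was between 67.9 and 424.0 in Control and between 1789 and 5106 in MA. The groups did not overlap for 11 of the 11 markers, all higher in MA, where 7.32% of tested genes were higher without overlap. Of the 11, 6 passed the adjusted threshold of limma, where 0.165% of tested genes passed in that direction. Slc4a5, among these 6, was at 0.27, 0.44 and 0.29 in Control, under the filter on low values. It was tested only through its MA values, so nothing is read from its call. Aqp1 and Cldn2, also among the 6, reached the filter in Control replicate 3 only. They too were tested only through their MA values, so nothing is read from their calls. Slc4a5, Aqp1 and Cldn2 are also within the count of markers whose groups did not overlap. Ttr, the transthyretin gene, had a log2 difference of 4.09 but did not pass (limma adjusted p = 0.0887). The 5 blood markers, 4 of which are globin genes, summed to between 1599 and 2024 in Control and between 3319 and 4378 in MA, with 3 of 5 past the threshold and all higher. The thalamic markers summed to between 48.4 and 73.6 in Control and were 147 and 151 in MA replicates 1 and 2 but 66.2 in MA replicate 3, inside the Control range. The endothelial markers summed to between 54.9 and 59.9 in Control and between 63.6 and 90.6 in MA.

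Within a group, Cpne2 and these sums could be set side by side. Ttr alone made up between 85.0% and 98.6% of the choroid plexus sum of a library, and in MA replicate 3 it held the highest value of the table, which all 6 libraries share. Control replicate 3 had 6.25 times the choroid plexus sum of Control replicate 1, but 1.34 times without Ttr, and the Cpne2 log2 levels of those libraries differed by 0.02. MA replicate 3 had 2.85 times the sum of MA replicate 1, or 1.61 times without Ttr, and its Cpne2 level was lower, at 4.76 against 4.94. The sum of the other 10 markers, taken after the values were seen, was between 10.2 and 13.7 in Control and between 45.2 and 73.0 in MA. For blood, the sums and the Cpne2 levels of the MA libraries had the same order, with replicate 1 the highest and replicate 2 the lowest in both. In Control, replicate 2 had the highest blood sum and the lowest Cpne2 level. Cpne2 was 4.76 in MA replicate 3, where the thalamic sum was inside the Control range, and 4.75 in MA replicate 2. Of the 12 thalamic markers, only Calb2 was above its highest Control value in MA replicate 3, at 5.21 against 4.87. In that library Rora, Rgs16, Synpo2 and Plekhg1 were below their lowest Control values, and the rest lay within their Control ranges. The part of choroid plexus, blood, endothelial or thalamic RNA in the difference between the groups was not tested.

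**Figure D5:**
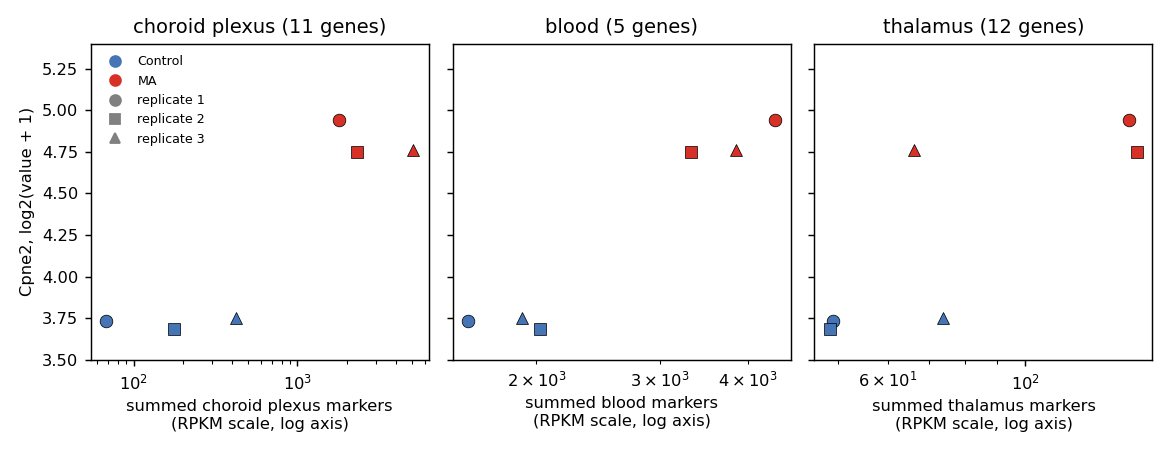
Cpne2 level on the log2(value + 1) axis against the summed linear RPKM-scale level of the choroid plexus, blood and thalamic markers on log axes, 1 point per library, Control in blue and MA in red. Choroid plexus and blood sums separate the groups as Cpne2 does, the Control points lie at 3.69 to 3.75 across choroid plexus sums that differ 6.25-fold with Ttr and 1.34-fold without it, and the thalamic sum of MA replicate 3 lies among the Control libraries.

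The genes whose pattern over the 6 libraries was most like that of Cpne2 were sought among the 200 tested genes that varied at least as much. Likeness was the root mean square difference between values centred on each gene's mean. The closest were the alpha globin genes Hba-a2 and Hba-a1, at 0.128 and 0.135 on the log2 scale, and the beta globin gene Hbb-bt, at 0.176. The serotonin receptor gene Htr2c and the polarity gene Crb3 followed at 0.200 and 0.203. For Cpne6, 4500 genes were eligible and the closest was Polr1c, which encodes a subunit of RNA polymerases I and III, at 0.072. Npy2r, Adra1d, Zrsr2 and Nfkbia came next, at 0.073 to 0.080. The measure is taken over 3 against 3 libraries and includes the difference between the groups.

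Copines are one branch of the proteins that bind membranes through C2 domains or, like annexins, through a calcium-dependent core, and the other branches were read from a list of 64 genes. Of these, 55 were tested and 0 passed the adjusted threshold of limma, with 31 means higher and 24 lower in MA. At an unadjusted p under 0.05 there were 5 of 55 higher and 1 of 55 lower, where 4.99% of all tested genes were higher and 5.46% lower. The median log2 difference was 0.03. Synaptotagmins, some of which are calcium sensors of vesicle fusion, had 8 of 15 means higher and a median of 0.01. The 8 Munc13 and RIM genes, which prepare vesicles for release, had a median of 0.27. Among the ferlins, a further C2-domain branch, the 3 tested genes had higher means and a median of 0.33. The 3 classical protein kinases C had lower means, with a median of -0.11. The 8 tested annexins had a median of 0.03.

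The largest positive difference of the list was that of Syt9, at 0.94 (limma adjusted p = 0.417), where Control replicate 3 lay at 2.36 and the other Control libraries at 1.20 and 0.98, and the MA libraries at 2.61, 2.59 and 2.14, so the groups overlapped. Rims3, a presynaptic RIM protein, and Pla2g4e, a cytosolic phospholipase A2, had differences of 0.43 and 0.41 (limma adjusted p = 0.734 and 0.370). Doc2b, a high-affinity calcium sensor of spontaneous release, was 4.92, 4.68 and 4.69 in Control and 4.22, 4.47 and 4.22 in MA, with every MA value lower. Its log2 difference of -0.46 did not pass (limma adjusted p = 0.238). Syt4, a synaptotagmin of dense-core vesicles, and Pla2g4b each had a difference of -0.27 (limma adjusted p = 0.615 and 0.769).

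Genes whose products are described as binding or acting with copines were read from a list of 16, of which 15 were tested and Rack1 had no row under that symbol. None of the 15 passed the adjusted threshold of limma, where 0.263% of tested genes did. At an unadjusted p under 0.05, 1 of 15 passed, where 10.4% of tested genes did, and 6 means were higher and 9 lower in MA, where 47.3% of tested genes were higher. The gene that passed unadjusted was Bdnf, the neurotrophin whose signal through Ntrk2 reaches Cpne6 in spines. Its log2 level was 3.75, 3.38 and 3.49 in Control replicates 1, 2 and 3 and 3.13, 3.26 and 3.17 in MA replicates 1, 2 and 3, lower in each MA library, with a difference of -0.36 (limma adjusted p = 0.354). Rac1 and Cdc42bpa, a kinase that acts with Cdc42, had differences of -0.16 and -0.10 (limma adjusted p = 0.665 and 0.751). Ppp5c, a protein phosphatase, Cops5, a subunit of the COP9 signalosome, and Ube2m, a NEDD8-conjugating enzyme, had differences of 0.15, 0.08 and 0.07 (limma adjusted p = 0.604, 0.750 and 0.914).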

How the data were processed

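HIPP RNA of 3 Control and 3 MA mice was sequenced, and groups followed the sample titles. According to the study's methods, alignment of the read pairs was by Hisat2 and gene counting by featureCounts, and the authors derived FPKM from gene length. The submitters' processing notes name Bowtie 0.12.2 and the builds mm8 and mm9 instead. The deposited table is named as RPKM but holds log values, read as log2 of the value plus 1. The log transform and the normalization between libraries are not described, and the base and the offset of 1 are inferred. Depth is unknown, so no count test was possible and no interval that needs depth is given.

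Rows were tested if 3 or more libraries reached 0.5 on the linear scale (13321 of 16060) with limma 3.58.1 in R 4.3.3, with an eBayes trend and Benjamini-Hochberg adjustment over all tested genes, after tests on simulated data. Copines, gene lists and rules were chosen with earlier results of these data known. Named genes were all copines, list members past the threshold, the 3 higher and 3 lower list members with the largest differences, the 5 genes most like Cpne2 and Cpne6, and genes overlapping a copine. Gene models and transcripts were those of GENCODE M21 on GRCm38, which may not be the authors' build, and 15987 of 16031 identifiers matched. The longest coding sequence of each copine was aligned with mafft 7.526. Alternatives were an offset of 0.1, no filter, a minimum mean of 5, median centring, quantile normalization, no trend, sample quality weights, a replicate block and leaving out each library. Protein and promoter sequences were not used here.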

Additional observations from a re-analysis of the deposited data

How the results depend on the processing

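The log2 differences of Cpne1, Cpne2, Cpne6 and Cpne8 and of Cpne2 against its paralogs kept their direction under all 14 alternatives, whereas those of Cpne3, Cpne4, Cpne5 and Cpne9 changed sign in 1, 2, 3 and 1 of them. The count of 35 genes past the adjusted threshold among all tested genes became 3 with no filter, 20 with a minimum mean of 5 and 586 with sample quality weights, and leaving out each library gave 0 to 246, with 246 without MA replicate 3. The count of copines past it, 1 in the reported fit, was 0 to 1 when each library was left out. Of the 55 tested other C2-domain and annexin genes, 2 passed with sample quality weights, Myof and Syt17, where 586 of 13321 tested genes did. Nothing is read from this count. Of the partner genes 0 passed in any alternative. Control and MA libraries share replicate numbers, but deviations of same-numbered libraries correlated at -0.197, -0.242 and -0.337, and nothing in the labels pairs the mice. With the replicate block 15 genes and 0 copines passed, and the differences themselves are the same by construction. Apart from these, the counts did not move by more than 1.5 times. Within-group ratios of the choroid plexus sum moved from 6.25 to 1.34 in Control and from 2.85 to 1.61 in MA without Ttr, an alternative chosen after seeing the data. The other causes were not tested. With 3 libraries a group and no read totals, the differences of Cpne1, Cpne3, Cpne4, Cpne5 and Cpne9 were within their standard errors.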

Other observations

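The protein-coding genes around Cpne2 on chromosome 8 were read as a further description, chosen after the copine values were seen. Within 500 kb on either side GENCODE M21 places 27 such genes, of which 21 were tested. Their median log2 difference was 0.02, with 11 means higher and 10 lower in MA and 0 past the adjusted threshold of limma. The nearest tested neighbour, Fam192a, begins 3607 bases after Cpne2 and had a difference of -0.04. Herpud1, a gene of endoplasmic reticulum stress 137613 bases before Cpne2, had a difference of -0.39 (limma adjusted p = 0.277). Drc7, a ciliary gene 484572 bases after it, had the largest positive difference, at 1.18 (limma adjusted p = 0.0628). The neighbours thus hold values on both sides of 0. Near Cpne8 only 3 protein-coding genes lie within the same distance, and their differences ranged from -0.25 to 0.07. Rbm12 overlaps Cpne1 on the same strand, and a single Rbm12 transcript holds up to 346 of the 50-base words of Cpne1. Rbm12 had a difference of -0.28, against 0.07 for Cpne1.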
